A study of Mus musculus with 24 samples.

Results

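A group of 32 genes, out of 25229 in the count table, was chosen by its level in ID8 P53 KO cells that had received both cisplatin and AU15330. The selection was made on mean CPM (a gene's counts divided by the library's total and multiplied by 1000000). A gene was selected on a combination mean of at least 1 CPM that was also at least 2 times the mean of each of DMSO, cisplatin and AU15330, with an AU15330 mean below 5 CPM. Symbols starting with Hox, Dlx, Col, Itg, Lam, Mmp, Ccl or Cxcl were to be left out, and the selection gave the same 32 genes when they were kept. In all, 1381 genes met the level limits and could therefore have been selected. The differences between the combination and each other group chose these genes, so they are given as values without a test.

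ID8 P53 KO is a mouse ovarian cancer cell line with a disrupted Trp53 gene, and every group below carries that genotype. The cells were treated for 6 days with DMSO, with 2.5 uM AU15330, with 750 nM cisplatin, or with both drugs at these doses, as the labels give them (the study's methods state another cisplatin concentration for this line), and 6 libraries of polyadenylated RNA were sequenced for each of the 4 groups. A single knockout line grown in culture is the model here, and no label says whether the 6 replicates came from separate cultures, so p-values measure only the spread between these libraries. The study asked how SMARCA4 bears on the elimination of senescent cells by NK cells, with cisplatin used to induce senescence in this line, and the design sets the combination beside each drug given alone.

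Cisplatin forms platinum adducts and crosslinks on DNA that block replication and transcription. SMARCA4 is an ATPase of the SWI/SNF complexes, which slide and evict nucleosomes and so control access to enhancers and promoters, and AU15330 is a PROTAC, a molecule that links its target to a ubiquitin ligase for degradation. The 32 genes belong to many pathways. They include a protease and inhibitors of the plasminogen and clotting systems, subunits of crosslink and recombination repair complexes, an orphan nuclear receptor, membrane transporters, immune surface proteins and genes best known from neurons and cilia.

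Library totals ranged from 17592588 to 25260009 counts, and 3 counts in a library corresponded to between 0.119 and 0.171 CPM. Of the 10 markers of ovarian surface epithelium and mesothelium, Wt1, Gata4, Gata6, Krt8, Krt18 and Msln were above 100 CPM in every group. Summed over the 10 genes, the level was 3758 to 5652 CPM in DMSO libraries, 4921 to 5651 CPM with cisplatin, 1866 to 2119 CPM with AU15330 and 1932 to 2170 CPM with the combination, while Krt7 averaged 0.0326 CPM and Krt19 7.22 CPM with AU15330. Summed over 10 leukocyte markers, the level was 6.17 to 17.65 CPM in DMSO, 7.02 to 12.95 CPM with cisplatin, 17.5 to 54.2 CPM with AU15330 and 25.0 to 44.2 CPM with the combination, nearly all of it Cd68, while Ncr1 was at 0 and Ptprc at most 0.0809 CPM in any group mean. The 7 endothelial markers summed to 3.45 to 5.41, 11.1 to 15.2, 0.587 to 1.17 and 0.632 to 2.22 CPM in the same order, with Emcn at 0. The 8 fibroblast markers, mainly Col1a1 and Dcn, summed to 219.9 to 597, 358.9 to 438.4, 115 to 179.9 and 202 to 304.7 CPM, and the globins were at 0. The part of these markers in the levels below was not tested. In bulk RNA, a smaller share of cells that express a gene and less RNA per cell cannot be told apart.

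Promoter sequences give a view of the group that the selection did not use. RefSeq promoters, from 250 bases before to 50 bases after the start of transcription, were held for 21 of the 32 genes in the mm10 (GRCm38.p6) build of the count table. The letters TGACGTCA, the full cyclic AMP response element bound by CREB and ATF family factors, were found for 3 of these 21 genes (14.3%). The shares were 3.35% of the 1045 genes with a promoter that could have been selected and 2.03% of all 27025 genes with a promoter. A gene with several windows counted once, as a match if any of them matched. These 3 promoters are shown because they are the ones that carry this element. It reads the same on both strands and stands 47 to 86 bases before the start in each. They belong to the long noncoding RNA 4930558J18Rik (chr1:57377495-57377794, minus strand), to the kinesin motor gene Kif17 (chr4:138262001-138262300, plus strand) and to the mucin-like gene Mucl3 (chr17:35643646-35643945, minus strand). Capitals mark the response element and, in Kif17 only, a TEAD match (CATTCC, the reverse strand of GGAATG) that ends before it without overlap.
4930558J18Rik: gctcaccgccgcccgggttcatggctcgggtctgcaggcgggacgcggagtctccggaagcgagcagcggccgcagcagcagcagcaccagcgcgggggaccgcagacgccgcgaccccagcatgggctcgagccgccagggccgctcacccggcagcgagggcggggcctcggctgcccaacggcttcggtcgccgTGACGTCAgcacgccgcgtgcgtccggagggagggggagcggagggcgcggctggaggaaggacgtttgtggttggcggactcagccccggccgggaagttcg
Kif17: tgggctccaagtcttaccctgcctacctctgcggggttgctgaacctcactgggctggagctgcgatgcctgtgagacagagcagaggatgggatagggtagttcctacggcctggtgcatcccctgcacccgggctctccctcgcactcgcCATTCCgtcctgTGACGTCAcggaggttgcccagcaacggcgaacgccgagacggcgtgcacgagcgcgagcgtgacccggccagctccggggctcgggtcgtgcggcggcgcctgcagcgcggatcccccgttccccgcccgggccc
Mucl3: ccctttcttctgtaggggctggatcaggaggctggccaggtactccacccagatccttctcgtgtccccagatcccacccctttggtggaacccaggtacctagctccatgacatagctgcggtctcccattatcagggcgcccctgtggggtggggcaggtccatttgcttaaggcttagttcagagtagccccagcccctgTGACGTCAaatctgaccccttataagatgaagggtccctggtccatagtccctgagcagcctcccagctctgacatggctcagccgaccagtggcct
A match of letters is a description of the window and does not show that a factor bound there.

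The E-box letters CACGTG, also the same on both strands, were found for 4 of the 21 genes (19.05%), beside 8.42% of the genes that could have been selected and 8.09% of all genes with a promoter. Dnph1, whose product hydrolyses abnormal nucleotides, has it 17 bases before its start (chr17:46496539-46496838, plus strand, capitals), and this promoter is shown because Dnph1 was among the highest genes of the group and its single-drug differences were small.
Dnph1: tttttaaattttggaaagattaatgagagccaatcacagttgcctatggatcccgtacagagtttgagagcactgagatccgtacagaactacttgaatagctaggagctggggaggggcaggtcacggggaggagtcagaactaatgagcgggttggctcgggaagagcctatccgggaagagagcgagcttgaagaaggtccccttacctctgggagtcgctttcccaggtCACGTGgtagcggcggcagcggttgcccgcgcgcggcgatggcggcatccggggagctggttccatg
The other 3 genes with an E-box were Enkur, Cerox1 and Timm8a1. For the next motifs, the share of genes that could have been selected and then that of all genes follow the share of the 21. TEAD (GGAATG) was found for 3 genes (14.3%, 15.1%, 16.6%) and the TATA box (TATAAA) for 2 (9.52%, 11.3%, 15.7%). AP-1 (TGANTCA) was found for 1 (4.76%, 6.89%, 8.97%) and an interferon element (GAAANNGAA) for 1 (4.76%, 8.13%, 9.76%). The ATF4 letters TTGCATCA and the NF-kB letters GGGACTTTC were found for 0 of 21, beside 0.957% and 0.574% of the genes that could have been selected and 1.03% and 0.403% of all genes. Motifs were searched on both strands. CpG-rich promoters made up 10 of the 21 (47.6%), close to the 48.8% among genes that could have been selected. The genes were scattered over 13 chromosomes, and the closest pair, H2-Q4 and Mucl3, lay 251 kb apart on chromosome 17.

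In the group, 29 genes encode proteins and 3 are long noncoding RNAs (4930558J18Rik, Cerox1 and Gm2788). Most were transcripts of low abundance. The combination mean was at least 5 CPM for 10 genes and below 3 CPM for 19. The combination mean was 2.02 to 5.72 times the next highest group mean, with a median of 2.22, and that next group was cisplatin for 16 genes, AU15330 for 15 and DMSO for 1. In 23 of the 32 genes, all 6 combination libraries were above all 18 others. This was so for 4.82% of the 12342 genes with a group mean of at least 1 CPM, but the selection used this contrast and nothing is read from the difference. Per kilobase of exon, the combination level was highest for Plau (14.3 CPM per kb) and Dnph1 (11.8 CPM per kb) and lowest for the calcium pump gene Atp2b4 (0.120 CPM per kb).

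**Figure D1:**
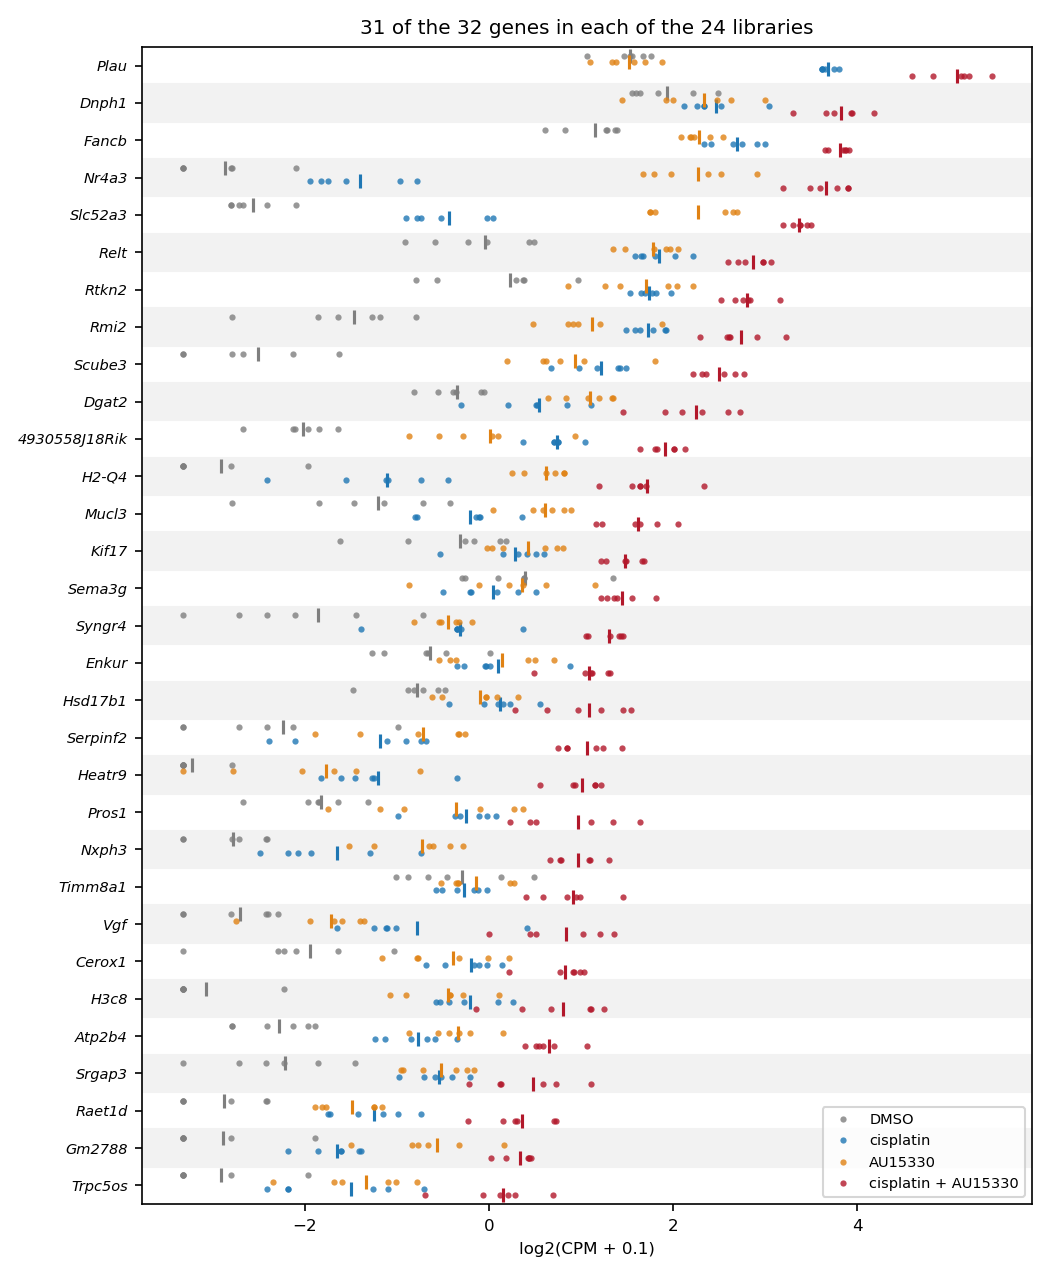
Level of 31 of the genes in each of the 24 libraries as log2(CPM + 0.1), where dots are libraries, vertical ticks are group means of 6 and genes are ordered by combination mean. The combination dots lie to the right for each gene, without overlap with the other groups in 22 of those shown and with overlap in, for example, Sema3g, Enkur and H3c8.

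The group was also examined within 3 sets of replicate numbers (1, 2 and 3, and 4 to 6), chosen after the data had been seen because libraries appeared alike within them. Neither the labels nor the methods name these sets, and the likeness was not tested. The combination mean was the highest of the 4 groups in all 3 sets for 30 genes, the exceptions being Sema3g and H3c8, and was at least 2 times each other group in all 3 sets for 11 genes. The 2-fold limit was met by 14 genes in replicate 1, by 20 in replicates 2 and 3 and by 30 in replicates 4 to 6. The sets differ in their number of libraries and in their part of the mean used for selection, so these counts cannot be compared between sets. With AU15330 alone, replicates 1 to 3 were all above replicates 4 to 6 for 10 of the 32 genes, among them Dnph1, Nr4a3 and Slc52a3, and all below for 2, where this was so for 19.3% and 14.1% of the genes with a group mean of at least 1 CPM. In DMSO the counts were 0 above and 1 below (987 and 1858 of those 12342 genes), with cisplatin 3 and 3 (14.4% and 16.6%) and with the combination 4 and 2 (7.63% and 11.6%). These counts are a description, with no test. Slc52a3, for example, averaged 6.11 CPM in AU15330 replicates 1 to 3 and 3.30 CPM in replicates 4 to 6, while the combination averaged 10.3 and 10.1 CPM in the same numbers. The ratio of the combination to AU15330 thus moved with the replicate numbers for this gene, from 1.64 in replicates 2 and 3 to 3.07 in replicates 4 to 6. When each replicate number was left out in turn from all groups, 29 to 36 genes met the rule, and 18 of the 32 did so every time.

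Plau (mm10 chromosome 14, 20836662 to 20843388, plus strand) encodes urokinase, the secreted protease that converts plasminogen to plasmin. Its lowest, median and highest library values were 1.99, 2.82 and 3.30 CPM in DMSO, 12.1, 12.3 and 13.8 CPM with cisplatin, 2.04, 2.697 and 3.58 CPM with AU15330, and 23.98, 35.2 and 43.8 CPM with the combination. The AU15330 libraries overlapped those of DMSO, the cisplatin libraries lay apart above both, and the combination libraries lay apart above all. Plau rose with cisplatin (log2 difference 2.11 ± 0.14 SE, adjusted p = 4.3e-12) and did not pass the test with AU15330 (−0.14 ± 0.16, adjusted p = 0.445). AU15330 thus went with a 2.67-fold higher mean in the presence of cisplatin (33.9 against 12.7 CPM) and 0.993 times the DMSO mean in its absence (2.76 against 2.78 CPM). Serpinf2, the alpha-2-antiplasmin that inhibits plasmin, was at 0 to 0.404 CPM in DMSO, 0.0917 to 0.524 CPM with cisplatin, 0.170 to 0.738 CPM with AU15330 and 1.58 to 2.61 CPM with the combination. Its combination libraries were all above the others, at a mean 3.91 times that of AU15330. Pros1, encoding the anticoagulant protein S, averaged 0.183 ± 0.0807 CPM (SD, n = 6) in DMSO, 0.742 ± 0.198 with cisplatin, 0.684 ± 0.419 with AU15330 and 1.86 ± 0.774 with the combination, and 2 libraries of the other groups reached the lowest combination library. Of the other genes of the plasminogen system, Plat, encoding tissue plasminogen activator, was highest with cisplatin (87.0 CPM, and 34.6 CPM with the combination). The receptor gene Plaur was at 32.7, 40.2, 22.4 and 43.6 CPM in DMSO, cisplatin, AU15330 and the combination.

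Other genes of the group that encode secreted proteins differed in their starting levels. Scube3, a secreted signalling modulator, had 10 counts over the 6 DMSO libraries and averaged 2.22 ± 0.472 CPM with cisplatin, 1.81 ± 0.830 with AU15330 and 5.54 ± 0.860 with the combination. Both drugs alone raised it, by log2 differences of 4.66 ± 0.41 (cisplatin, adjusted p = 5.58e-10) and 4.31 ± 0.42 (AU15330, adjusted p = 9.18e-10). Sema3g, a class 3 semaphorin, was the only gene whose next highest group was DMSO. It ranged from 0.719 to 2.44 CPM in DMSO, 0.606 to 1.32 with cisplatin, 0.448 to 2.12 with AU15330 and 2.23 to 3.42 with the combination, and its highest DMSO library, replicate 1, overlapped the combination. The other class 3 semaphorin genes were each highest in a group other than the combination, such as Sema3c at 2858 CPM with AU15330 and 1867 CPM with the combination.

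**Figure D2:**
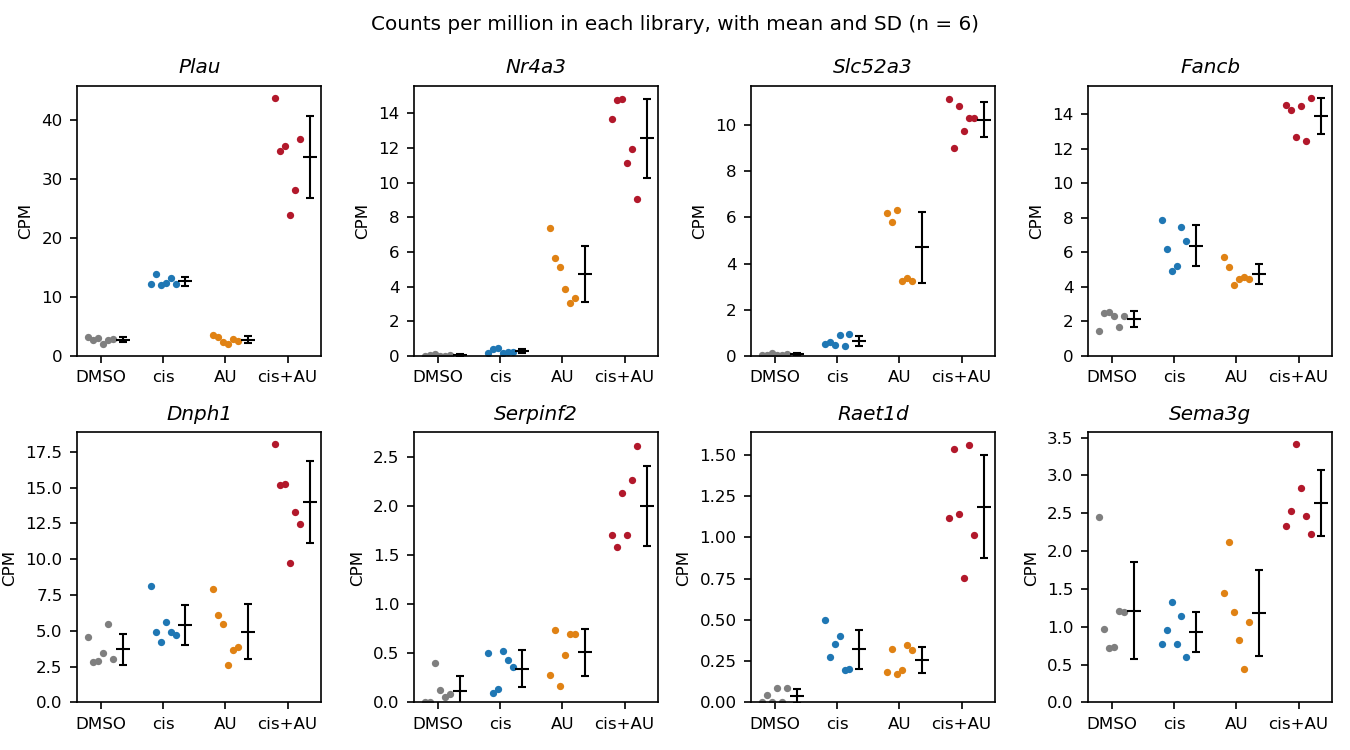
CPM on linear axes for 8 of the genes in DMSO, cisplatin (cis), AU15330 (AU) and combination (cis+AU) libraries, where dots are libraries and the bar beside them is the mean with SD (n = 6). Plau is near its DMSO level with AU15330 alone, Nr4a3 and Slc52a3 are near 0 with cisplatin alone, and the DMSO replicate 1 library of Sema3g (2.44 CPM) reaches the combination range.

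Fancb and Rmi2 encode subunits of complexes that act on damaged DNA. Fancb, part of the Fanconi anemia core complex that starts the repair of interstrand crosslinks, had lowest, median and highest values of 1.42, 2.32 and 2.52 CPM in DMSO, 4.93, 6.41 and 7.89 CPM with cisplatin, 4.13, 4.53 and 5.71 CPM with AU15330 and 12.5, 14.3 and 14.95 CPM with the combination. Both drugs alone lay above DMSO without overlap, and the combination lay above both. The increases with cisplatin (1.497 ± 0.14 log2, adjusted p = 1.6e-09) and AU15330 (1.02 ± 0.14, adjusted p = 4.38e-07) both passed the test. Rmi2, which with BLM dissolves recombination intermediates, averaged 0.263 ± 0.149 CPM in DMSO, 3.22 ± 0.403 with cisplatin, 2.07 ± 0.794 with AU15330 and 6.57 ± 1.55 with the combination (n = 6 each). Fancb shares its locus with Mospd2 on the opposite strand, at 46.0 to 75.7 CPM in the group means, and the strand setting of the counting is not given in the sources used here. Reads of overlapping genes could not be told apart if strand was not used.

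The families of these repair genes were looked up after the group was known, so their values carry no test. Of the 11 Fanconi core genes in the table, Fanca, Fancg, Fancm and Faap24 also had their highest mean with the combination. Fanca averaged 5.72 CPM in DMSO, 26.8 with cisplatin, 12.5 with AU15330 and 42.5 with the combination. Fancc, Fance, Fancl, Faap20 and Faap100 were highest in other groups, and Fancf had 3 counts in all, each in the combination. Fance, for example, was at 29.8 CPM in DMSO and 24.7 CPM with the combination. The 4 genes of the BLM dissolvasome all had their highest mean with the combination, at 36.3 CPM for the helicase gene Blm (30.2 with cisplatin), 37.8 CPM for Top3a (35.7 with AU15330) and 10.3 CPM for Rmi1 (9.46 with AU15330). For Blm, Top3a and Rmi1 the combination libraries overlapped those of the next group, such as 33.2 to 42.3 against 31.9 to 39.7 CPM for Top3a. The ratio to the next group was below 2 for each partner that reached 1 CPM and above it for Rmi2 and Fancb, as the rule required of them.

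Dnph1 differed less between the single drugs and DMSO than most of the group, at 1.46 times the DMSO mean with cisplatin and 1.33 times with AU15330. Its lowest, median and highest values were 2.83, 3.24 and 5.50 CPM in DMSO, 4.23, 4.95 and 8.12 CPM with cisplatin, 2.63, 4.67 and 7.90 CPM with AU15330 and 9.72, 14.2 and 18.1 CPM with the combination. The 3 groups without the combination overlapped and the combination libraries lay above them. The test did not call cisplatin (0.48 ± 0.22 log2, adjusted p = 0.0711) or AU15330 (0.30 ± 0.22, adjusted p = 0.235), although cisplatin passed with the 3 sets of replicate numbers in the fit (0.46, adjusted p = 0.0228). The histone H3 gene H3c8 had 2 counts over the DMSO group and averaged 0.767 CPM with cisplatin, 0.634 with AU15330 and 1.64 with the combination. The ratio to DMSO was 48.6 for cisplatin (95% exact counting interval 13.1 to 406.7) and 40.9 for AU15330 (10.95 to 343.1). Histone genes share near-identical sequence and most of their mRNA lacks a poly(A) tail, so this level is uncertain.

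Nr4a3 (mm10 chromosome 4, 48045078 to 48086447, plus strand), an orphan nuclear receptor of the immediate early class, had the largest log2 difference with AU15330 alone among the 32 genes. It had 5 counts over the 6 DMSO libraries, and ranged from 0 to 0.135 CPM there, from 0.161 to 0.485 CPM with cisplatin, from 3.08 to 7.39 CPM with AU15330 and from 9.05 to 14.8 CPM with the combination. The 4 groups did not overlap. The log2 difference from DMSO was 6.60 ± 0.41 with AU15330 (adjusted p = 9.94e-14), and AU15330 was 4.01 ± 0.29 above cisplatin (adjusted p = 2.43e-12). The fitted difference with cisplatin was 2.59 ± 0.63, without a test because Nr4a3 did not pass the low-count filter in the DMSO and cisplatin libraries alone. Its relatives differed in pattern, since Nr4a1 averaged 49.8 CPM in DMSO and 11.8 CPM with the combination, and Nr4a2 averaged 16.7 CPM with AU15330 and 17.7 CPM with the combination.

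**Figure D3:**
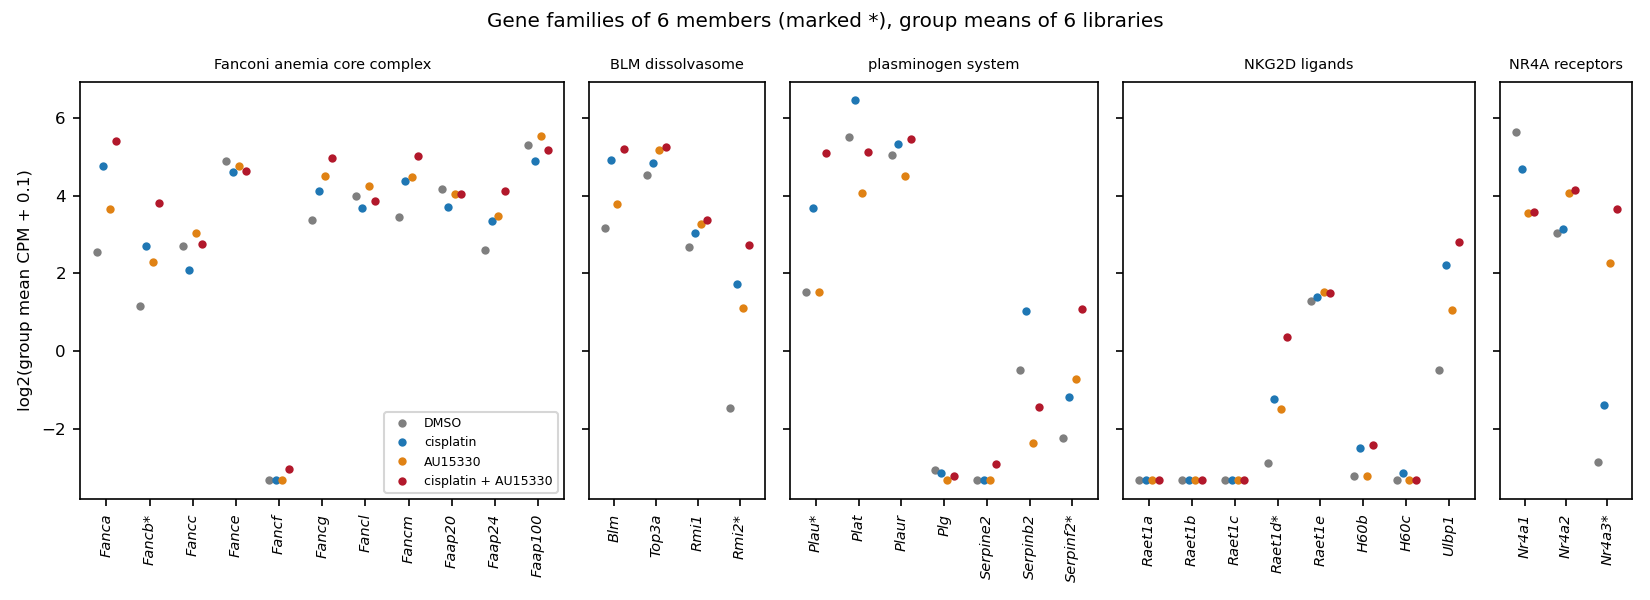
Group means as log2(CPM + 0.1) for the families of Fancb, Rmi2, Plau, Serpinf2, Raet1d and Nr4a3 (marked with an asterisk), where dots are means of 6 libraries. The 4 BLM dissolvasome genes have their highest mean with the combination, by little for Top3a and Rmi1, whereas Nr4a1 is highest in DMSO.

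Slc52a3 (mm10 chromosome 2, 151996511 to 152009258, plus strand), a riboflavin transporter gene, followed the same order of groups as Nr4a3. It was at 0.0433 to 0.135 CPM in DMSO, 0.435 to 0.930 CPM with cisplatin, 3.26 to 6.34 CPM with AU15330 and 9.03 to 11.1 CPM with the combination, with no overlap between groups. AU15330 raised it by 5.82 ± 0.31 log2 units (adjusted p = 4.98e-15). The fitted difference with cisplatin was 3.02 ± 0.40, without a test for the same reason as in Nr4a3. The other riboflavin transporter gene in the table, Slc52a2, had group means between 29.5 and 34.3 CPM. Atp2b4, a calcium pump of the plasma membrane, averaged 0.106 ± 0.0551 CPM in DMSO, 0.486 ± 0.136 with cisplatin, 0.692 ± 0.192 with AU15330 and 1.47 ± 0.275 with the combination. Dgat2, which makes triglycerides, averaged 0.685 ± 0.151, 1.363 ± 0.470, 2.03 ± 0.397 and 4.64 ± 1.45 CPM in the same order, and its lowest combination library was 1.08 times the highest other library. Hsd17b1, which converts estrone to estradiol, was lower, with a combination mean of 2.02 ± 0.667 CPM, and 2 libraries of other groups reached the lowest combination library.

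Raet1d, H2-Q4 and Relt encode immune surface proteins. Raet1d, a stress-induced ligand of the NK cell receptor NKG2D, had 5 counts over the DMSO libraries and ranged from 0.198 to 0.502 CPM with cisplatin, from 0.170 to 0.348 CPM with AU15330 and from 0.755 to 1.56 CPM with the combination. The fitted log2 difference from DMSO was 2.79 ± 0.50 with cisplatin and 2.42 ± 0.53 with AU15330, given without a test because Raet1d did not pass the low-count filter in the compared groups alone. The combination libraries lay above all others. Its near-identical relatives Raet1a, Raet1b and Raet1c were listed at 0 counts in all 24 libraries, so the share of reads that belongs to each of these copies is uncertain. Of the other NKG2D ligand genes, Ulbp1 averaged 0.612, 4.52, 1.97 and 6.90 CPM in DMSO, cisplatin, AU15330 and the combination, and Raet1e stayed between 2.33 and 2.74 CPM. H2-Q4, an MHC class Ib gene, averaged 0.0335 CPM in DMSO, 0.366 ± 0.191 with cisplatin, 1.43 ± 0.238 with AU15330 and 3.20 ± 0.920 with the combination, and reads can be shared among H2-Q genes. Relt, a TNF receptor family member, averaged 0.868 ± 0.357, 3.49 ± 0.645, 3.34 ± 0.647 and 7.17 ± 0.918 CPM in the same order, with overlapping single-drug libraries.

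Several genes of the group are best known from the cytoskeleton, cilia or neurons. Rtkn2, an effector of small GTPases, averaged 1.07 ± 0.501 CPM in DMSO, 3.25 ± 0.359 with cisplatin, 3.15 ± 1.11 with AU15330 and 6.90 ± 1.08 with the combination. Srgap3, a GTPase-activating protein, averaged 1.29 ± 0.477 CPM with the combination and 0.116 ± 0.0946 CPM in DMSO. Kif17 rose with AU15330 (0.67 ± 0.26 log2, adjusted p = 0.0247) and missed the threshold with cisplatin (0.57 ± 0.26, adjusted p = 0.0743), and its combination libraries, 2.23 to 3.12 CPM, lay above all others. Enkur, a protein of the sperm flagellum, had the smallest ratio in the group, 2.02, and 3 libraries of other groups reached its lowest combination library.

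Syngr4, of the synaptogyrin family, averaged 2.36 ± 0.298 CPM with the combination against 0.707 ± 0.288 with cisplatin and 0.636 ± 0.109 with AU15330, which overlapped. Nxph3, a neurexin-binding glycoprotein, averaged 0.0454 ± 0.0394 CPM in DMSO, 0.218 ± 0.159 with cisplatin, 0.505 ± 0.185 with AU15330 and 1.86 ± 0.340 with the combination. Vgf, a precursor of neuropeptides, averaged 0.0542 ± 0.0466, 0.483 ± 0.372, 0.204 ± 0.0893 and 1.68 ± 0.611 CPM in the same order. For Vgf, cisplatin replicate 1 stood apart at 1.23 CPM, against 0.220 to 0.396 CPM in the other 5 cisplatin libraries, and reached into the combination range of 0.905 to 2.46 CPM.

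Of the remaining genes, Heatr9 had the largest ratio of the combination to the next group, 5.72. It had 1 count over the DMSO libraries and ranged from 0.182 to 0.687 CPM with cisplatin, 0 to 0.497 CPM with AU15330 and 1.37 to 2.23 CPM with the combination. The ratio to DMSO was 43.2 for cisplatin (95% exact counting interval 7.40 to 1742) and 24.2 for AU15330 (3.95 to 995.5), intervals that cover counting error only. Timm8a1, a mitochondrial import chaperone, averaged 0.718 ± 0.360, 0.728 ± 0.126, 0.807 ± 0.221 and 1.78 ± 0.493 CPM in DMSO, cisplatin, AU15330 and the combination, and neither drug alone passed the test (adjusted p = 0.905 and 0.86). Mucl3 averaged 0.333 ± 0.221, 0.769 ± 0.265, 1.42 ± 0.294 and 2.96 ± 0.727 CPM in that order.

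Among the noncoding genes, 4930558J18Rik averaged 0.146 ± 0.0555 CPM in DMSO, 1.57 ± 0.244 with cisplatin, 0.911 ± 0.484 with AU15330 and 3.66 ± 0.457 with the combination, and Cerox1, known as a regulator of respiratory complex I, reached 1.68 ± 0.321 CPM with the combination. Gm2788 averaged 0.0358, 0.219, 0.576 and 1.16 CPM in DMSO, cisplatin, AU15330 and the combination. It overlaps E2f8, a cell cycle repressor on the opposite strand, which was at 2.42, 15.8, 8.59 and 23.99 CPM in the same order, so the order of the single drugs differed between these genes. Trpc5os lies opposite the channel gene Trpc5, which had 5 counts in all 24 libraries, and averaged 1.01 ± 0.328 CPM with the combination, the level nearest to the limit of 1 CPM.

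The comparisons of each drug alone with DMSO asked whether these genes already responded to a single drug. The selection bounded every group mean at 0.5 times the combination mean but set no order between the single drugs and DMSO, apart from the limit on AU15330, and only these comparisons and that between the drugs were tested, with edgeR's quasi-likelihood test adjusted over 12941 genes. Cisplatin raised 28 of the 32 genes and lowered 0, where 26.0% of all tested genes and 44.2% of those that could have been selected rose and 25.7% of all fell. AU15330 also raised 28 and lowered 0, where 36.2% and 40.6% rose and 37.2% of all fell. No gene of the group was lower at an unadjusted p under 0.05 (0 for both drugs) or by DESeq2 (0 for both). All 32 genes passed the low-count filter, but some only through libraries outside the comparison, such as the combination on which they were selected, so these counts describe the group and support nothing further. The median log2 difference in the group was 2.11 for cisplatin and 1.94 for AU15330, beside 0.39 and 0.16 among genes that could have been selected. Both comparisons share the DMSO libraries.

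With only the compared groups in the fit, 13 genes no longer passed the filter for cisplatin and 13 for AU15330, and 16 passed it for both. Cisplatin then raised 14 of the 19 genes tested, where 21.6% of all genes rose in the same fit, and AU15330 raised 14 of 19, where 35.2% rose. None of the 19 fell with cisplatin or with AU15330, where 22.1% and 35.3% of all genes fell. Both comparisons used the same DMSO libraries. Fancb, Rmi2, Relt and Scube3 rose with either drug in these fits, while Dnph1, Kif17, Sema3g and Timm8a1 passed neither test. Plau passed with cisplatin and not with AU15330. Kif17 passed with AU15330 in the fit of all groups (adjusted p = 0.0247) and not in that of the compared groups (0.0612). The difference between the drugs was −2.25 ± 0.14 log2 for Plau (AU15330 against cisplatin), without a test, because a gene with 12.7 CPM in cisplatin could be selected only with a lower AU15330 mean. For Kif17 that difference did not pass the test (0.10 ± 0.25, adjusted p = 0.717). Calls near the threshold depended on single replicate numbers. With cisplatin, Enkur lost its call without replicate 2, 3 or 5 (adjusted p up to 0.258) and Serpinf2 without replicate 1, 4, 5 or 6 (up to 0.138). With AU15330, Kif17 lost its call without replicate 2, 5 or 6 (up to 0.0719), Enkur without 1, 2 or 3 (up to 0.141), Hsd17b1 without 2, 4, 5 or 6 (up to 0.136) and Vgf without 2, 4 or 6 (up to 0.0717). Serpinf2 and Vgf were among the genes that entered these tests only through libraries outside the comparison.

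**Figure D4:**
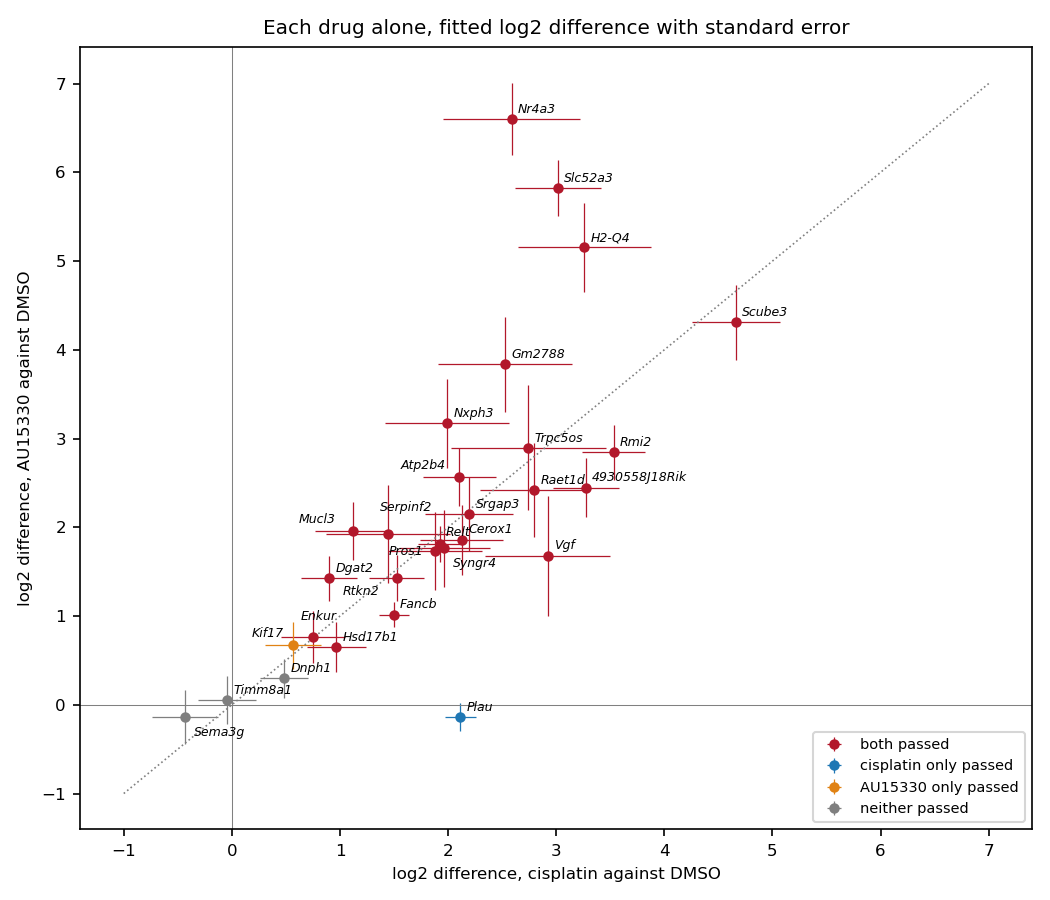
Fitted log2 difference from DMSO with cisplatin (horizontal) and with AU15330 (vertical) for 29 of the genes, leaving out, among others, Heatr9 and H3c8, which had 1 and 2 counts in DMSO. Points are fitted values with standard errors, colours give which test passed in the fit of all 4 groups, the dotted line marks equal differences, and Plau lies far below it and Nr4a3, Slc52a3 and H2-Q4 far above.

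The fit called a difference between the single drugs for 12 genes of the group. AU15330 was above cisplatin for 7, namely Nr4a3 (log2 difference 4.01), Slc52a3 (2.81), H2-Q4 (1.89), Gm2788 (1.31), Nxph3 (1.18), Mucl3 (0.84) and Dgat2 (0.53), where 35.8% of all tested genes were higher. It was below cisplatin for 5, namely Plau (−2.25), Vgf (−1.24), 4930558J18Rik (−0.83), Rmi2 (−0.69) and Fancb (−0.48), where 37.3% of all were lower. Of the 12, Gm2788, Nxph3 and Vgf did not pass the filter in the compared groups alone, and that fit called 4 genes higher (36.7% of all) and 4 lower (38.6%) with AU15330 than with cisplatin. The limit of 5 CPM applied to AU15330 and not to cisplatin. It fixed the direction for the genes above 5 CPM with cisplatin, which were Plau (12.7 CPM), Fancb (6.38 CPM) and Dnph1 (5.43 CPM), so the values of Plau and Fancb among the 5 are a description and no test of a difference between the drugs. The calls of Dgat2 without replicate 2, 3, 5 or 6 (adjusted p up to 0.137), Vgf without replicate 1 (log2 difference −0.86, adjusted p = 0.0695) and Rmi2 without replicate 5 (−0.54, adjusted p = 0.0606) were lost.

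The level with both drugs can also be set beside the sum of the log2 differences of the single drugs, again as a description, since the selection used the combination. The fitted combination difference exceeded that sum for 11 genes and fell short of it for 21. The excess was above 1 log2 unit for Sema3g (1.57), Plau (1.49), Timm8a1 (1.17) and Dnph1 (1.01), of which Plau passed the test with cisplatin only and the other 3 with neither drug. The 2-fold limit gives an excess near 1 or more to any gene that 1 of the drugs alone leaves at its DMSO level. These values are therefore largely set by the selection. The excess was below −1 for 12 genes, among them Scube3 (−3.07), H2-Q4 (−2.12), Slc52a3 (−1.91) and Rmi2 (−1.88), and H3c8 and Heatr9, whose fitted values depend on the count added to their near-empty DMSO libraries. Few DMSO counts limit the other named values too, at 10 for Scube3, 4 for H2-Q4, 9 for Slc52a3 and 33 for Rmi2 over the DMSO group. On group mean CPM by library totals, 9 of the 30 genes with more than 3 DMSO counts exceeded the product of the single-drug ratios.

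A few genes of the group belong to lists of gene families and pathways. Of 19 lists, 7 held 1 gene of the group each and 12 held none, among them the cytokines and growth factors of the senescence-associated secretory phenotype (0 of 86 genes), NF-kB and AP-1 genes (0 of 30), interferon-stimulated genes (0 of 36), p53 targets (0 of 32), ATF4 targets (0 of 31) and YAP/TEAD targets (0 of 26). The group is 0.127% of the genes in the table, so nothing is read from a count of 0 in lists of this size. The remaining 25 genes of the group were in no list. Trpc5os fell in the list of ion channels by its name only. Of the 20 tested proteases and inhibitors, the list of Plau, 14 rose and 1 fell with cisplatin, and 8 rose and 8 fell with AU15330 (median log2 difference 1.07 and 0.01). Of the 24 tested ligands for NK and T cells and other immune surface proteins, the list of Raet1d, 15 rose and 1 fell with cisplatin, and 13 rose and 8 fell with AU15330 (median 1.26 and 1.10). Of all tested genes, 26.0% rose and 25.7% fell with cisplatin and 36.2% rose and 37.2% fell with AU15330, with a median of −0.00 for either drug. The AU15330 counts of the proteases were close to those shares.

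The same shares of all genes (26.0% higher and 25.7% lower with cisplatin, 36.2% and 37.2% with AU15330) stand beside the following lists. Of 29 tested synaptic and neuronal genes, the list of Vgf, 14 rose and 7 fell with cisplatin and 12 rose and 10 fell with AU15330. Of 23 complement and coagulation genes, the list of Pros1, 9 rose and 6 fell with cisplatin and 8 rose and 13 fell with AU15330 (median 0.54 and −1.28). The list of 215 solute carriers, with Slc52a3, had 55 higher and 72 lower with cisplatin and 71 higher and 106 lower with AU15330, and that of 97 keratin, junction and barrier genes, with Mucl3, had 31 higher and 18 lower, and 31 higher and 47 lower. Beyond these lists, among 40 other genes of the families of the group that reached 1 CPM, 13 had their highest mean with the combination and 0 reached 2 times each other group, which is partly built in, since such a gene with an AU15330 mean below 5 CPM would itself have been selected.

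The limits of the rule cut through a continuous range of values. Just inside the 2-fold limit were Enkur (2.02), Gm2788 (2.02) and Rmi2 (2.04), and just outside were Necab3 (1.99), AI506816 (1.99) and Capsl (1.98). At the level limit, Trpc5os (1.01 CPM), Gm2788 (1.16) and Raet1d (1.19) were inside and Spink10 (0.978 CPM), Efr3b (0.972) and Ccdc150 (0.955) outside. At the AU15330 limit, Dnph1 (4.94 CPM), Fancb (4.75) and Nr4a3 (4.74) were inside and Amelx (5.34), Sh2d5 (7.53) and Prph (7.85) outside, with combination means of 12.2, 26.6 and 24.2 CPM.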

How the data were processed

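RNA of 24 libraries was measured by strand-specific sequencing after poly(A) enrichment. The authors deposited raw gene counts for 2 lanes of each library (48 columns, 0 without a sample), and the lanes were summed. The submitters' processing notes name STAR 2.7.1a, DESeq2 1.36.0 and build mm10, while the counting tool and its strand setting are not given in the sources used here. Groups came from the sample labels. CPM used library totals. Counts were tested with edgeR 4.0.16 (R 4.3.3; filterByExpr, TMM factors 0.909 to 1.05, glmQLFit and glmQLFTest, 1 mean per group, 20 residual degrees of freedom, Benjamini-Hochberg over 12941 genes, threshold 0.05). The script was tested on simulated data. Alternatives were DESeq2 1.42.0, other scaling, filters, the replicate block, leaving out replicate numbers and other limits of the rule.

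The genes and lists were chosen with earlier results of these data known. Genes were named by combination level, ratio, list, nearness to a limit and class of calls, and 31 of the 32 are described; values of the other and of a few related genes are not reported here. Positions and promoters are from RefSeq (GRCm38.p6), exon lengths from GENCODE vM21 (Cerox1 and H3c8 had none there). A CpG-rich promoter had a GC content of at least 50% and an observed-over-expected CpG ratio of at least 0.6. Counting intervals are exact Clopper-Pearson.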

Additional observations from a re-analysis of the deposited data

Results flagged for a closer look

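In 13 of 124 groups of 6 libraries (31 genes), a single library lay far above the other 5, and its gap to the nearest of them, divided by the spread from lowest to highest, passed the 95% critical value of Dixon's test (0.625). For normally distributed values chance gives about 1 in 20, or 6.2. That rate does not hold for groups of a few counts, so nothing is read from the difference. The distant library was replicate 1 in 5 groups, replicate 6 in 3, replicate 5 in 2, replicate 3 in 2 and replicate 2 in 1, and in 8 of the 13 it was a DMSO library.

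In 6 of the 8 DMSO groups the distant library held at most 3 counts. These were Nr4a3 (gap 0.67 of the range, replicate 3), H2-Q4 (0.718, replicate 5), Heatr9 (1, replicate 6), H3c8 (1, replicate 1), Gm2788 (0.74, replicate 1) and Trpc5os (0.724, replicate 5). The other 2 were Sema3g (0.719, replicate 1 at 2.44 CPM against 0.719 to 1.20) and Serpinf2 (0.679, replicate 3 at 0.404 CPM against 0 to 0.130).

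With cisplatin, the distant libraries were those of Dnph1 (0.635, replicate 1 at 8.12 CPM against 4.23 to 5.65), Enkur (0.786, replicate 2 at 1.74 CPM against 0.686 to 0.912), Heatr9 (0.722, replicate 6 at 0.687 CPM against 0.182 to 0.323) and Vgf (0.826, replicate 1 at 1.23 CPM against 0.220 to 0.396). With the combination, replicate 6 stood apart for H2-Q4 (0.643, at 4.94 CPM against 2.19 to 3.17). The causes were not tested.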

How the results depend on the processing

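The number of genes that met the rule was 88 at a 1.5-fold limit, 7 at 3-fold, 19 at a level of 2 CPM and 52 without the AU15330 limit. With TMM library sizes it was 26, all among the 32, and with group medians 38, of which 31 were shared. Leaving out each replicate number gave 29 to 36 genes. Fitting only the compared groups tested 19, 19 and 26 of the 32 genes and called 14 higher with cisplatin (21.6% of all genes in that fit), 14 higher with AU15330 (35.2%) and 4 higher with AU15330 against cisplatin (36.7%). Fewer genes passed the filter, and 3 calls were lost among genes still tested (Enkur with cisplatin, Kif17 with AU15330 and Dgat2 between the drugs). Requiring a fold above 1.5 left only Plau lower with AU15330 than with cisplatin, a direction that the AU15330 limit of the rule had fixed. In the protease list, 0 genes fell with cisplatin under DESeq2 size factors and 2 with the replicate block. Library totals in place of TMM moved the median log2 difference of all tested genes by 0.0738 for cisplatin and 0.129 for AU15330 against DMSO.

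For Timm8a1 with cisplatin, the log2 difference changed sign under library totals (0.02342) and ran from −0.19 to 0.16 over the left-out replicate numbers. With AU15330 it ran from −0.16 to 0.36 for Timm8a1 and from −0.42 to 0.10 for Sema3g. None of these values passed the test and the causes were not tested. Of 1035 values of single genes under alternatives, 970 kept direction and call, 51 lost a call, 6 gained one and 8 changed sign.

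Same-numbered libraries resembled each other more than other pairs did, though not throughout, and no label says that the numbers pair them. Of 36 same-numbered pairs, 23 had deviations correlated above 0.1, among them all 6 of number 1. The mean correlation was 0.145 against −0.0269 for other pairs, and 10 of 24 libraries correlated best with their own number. With the replicate block, 28 genes rose with cisplatin and 28 with AU15330, as without it, where 26.0% and 36.2% of all tested genes rose. Some of these genes passed the filter only through libraries outside the comparison, so the counts support nothing further. Dnph1 gained the cisplatin call in edgeR's test (adjusted p = 0.0244). Serpinf2, which passed the filter only through other libraries, missed it (0.0508). Low counts limit the single-drug values of genes with few DMSO counts.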
